A study of Mus musculus with 3 samples.

Results

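The mouse genome holds 39 Hox genes, and all 39 were found by symbol (Hoxa, Hoxb, Hoxc or Hoxd followed by a number) among the 33696 features counted in single cells of the larynx. The cells came from Lrig1CreERT2/+; ROSA26CAG−LSL−tdTomato/+ mice, in which tamoxifen lets Cre, made under the control of Lrig1, switch on the red reporter tdTomato in cells that express Lrig1. Red cells were sorted 24 h after recombination and sequenced as 3 libraries, each from its own pool of 10 larynges (5 male and 5 female mice). The labels do not assign a cell to a sex or an animal, and neither was read from the counts here. Every mouse in the libraries carried both alleles and received tamoxifen. WT and reporter-only larynges served to set the sort gates and are not analysed here, and the age of the mice is not given in the sources used here. A library is therefore 1 replicate of a single group, and the comparisons below are between cell classes of the same 3 pools.

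Hox genes encode homeodomain transcription factors that give cells their position along the head-to-tail axis. They lie in 4 clusters, and in the embryo the genes with low numbers are active from the hindbrain and pharynx backwards while genes with higher numbers start further towards the tail. Many adult cells keep part of this code, so that a fibroblast, an endothelial cell and an epithelial cell of the same organ can carry different sets. The larynx forms from the caudal pharyngeal arches and the foregut, a region of low paralog numbers. On GRCm39 the HoxA cluster (11 genes) lies on chromosome 6, HoxB (10 genes) on chromosome 11 from 96085106 to 96259082, HoxC (9 genes) on chromosome 15 from 102829538 to 102945278 and HoxD (9 genes) on chromosome 2 from 74498654 to 74595486. In the annotation Hoxa3 overlaps Hoxa4, Hoxa5 and Hoxa6 on the same strand, and Hoxd3 overlaps Hoxd4, so that the split of UMIs within these pairs is uncertain.

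Cells were placed in classes by unique molecular identifiers (UMIs) of marker genes, and no Hox gene was a marker. Of 60530 barcodes, 44542 passed the limits on genes, UMIs and mitochondrial share and did not resemble simulated doublets. A cell had to meet exactly 1 lineage rule to enter a class. In libraries 1, 2 and 3 this gave 2106, 411 and 1736 fibroblasts, 728, 682 and 1036 satellite cells (muscle stem cells), and 491, 30 and 44 endothelial cells. Epithelial cells with Nkx2-1, the transcription factor of lung and trachea, and no Tmprss11a were called airway (1883, 1040 and 3498 cells), and those with Tmprss11a, a protease of squamous epithelium, and no Nkx2-1 were called squamous (2504, 2160 and 7227). A further 6299 epithelial cells had UMIs of both genes and 4798 had neither. Those cells entered neither the airway nor the squamous class. Library depth ran from 109316583 to 286507922 UMIs in cells, 491 of the 565 endothelial cells came from library 1, and 21, 108 and 63 barcodes occurred in a pair of libraries. Levels are given as CPM, the counts of UMIs of a gene scaled to the same total number of UMIs in each class and library. The method counts the 3′ end of each transcript, so CPM was not divided by gene length. Whether the levels depend on gene length was not tested.

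The labels of the classes were checked on markers outside the rules. The squamous class held 9 of 10 squamous check markers at 5 CPM or more in each library, with a summed level of 1673 to 2954 CPM against 398 to 563 in airway cells. It also held 6 of 10 airway check markers, which summed to 5363 to 6140 CPM there against 11540 to 13051 CPM in airway cells, so the squamous class is not free of airway transcripts. Squamous Krt13 stood at 1102, 417 and 865 CPM against 43.1, 29.6 and 62.6 CPM in airway cells, and airway Scgb3a2 stood at 1747, 1216 and 1512 CPM against 93.7, 55.9 and 72.5 CPM. The endothelial class held all 8 blood and all 8 lymphatic endothelial markers at 5 CPM or more, so it mixes both kinds of vessel. The 8 fibroblast matrix genes outside the rules were used as a guide to foreign fibroblast RNA, which holds only where a class does not make them. In airway, squamous and endothelial cells they stood at 0.300% to 0.897% of their fibroblast level, and in satellite cells at 5.51% to 8.69%. Against squamous cells 6 of the 8 were higher and 1 lower in satellite cells, and whether satellite cells make them was not tested. The part of sort losses and foreign RNA in the results was not tested beyond these values. Shared animals were addressed only by fits with the library as a block, given below.

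Of the 39 genes, 12 reached 5 CPM in all 3 libraries of a main class, and the highest number in that set differed by class. Fibroblasts held 10 (Hoxa2, Hoxa3, Hoxa4, Hoxa5, Hoxb2, Hoxb3, Hoxb4, Hoxb5, Hoxd3 and Hoxd4). Airway cells held 7 (Hoxa2, Hoxa3, Hoxa4, Hoxa5, Hoxb2, Hoxb3 and Hoxb4), and squamous cells held 5 of those 7, with Hoxa2 at 4.97 CPM in library 1 and Hoxa4 at 4.99 CPM in library 2 just under the limit. Satellite cells held 5 (Hoxa3, Hoxb2, Hoxb3, Hoxb4 and Hoxd8), and endothelial cells held 6 (Hoxb3, Hoxb4, Hoxd3, Hoxd4, Hoxd8 and Hoxd9). In the 3 classes of fibroblasts, airway and squamous cells the set ended at paralog number 5, in satellite cells at 8 and in endothelial cells at 9. Of the 12 genes numbered 10 to 13, 8 had no UMI among the 354621170 UMIs of the 5 classes. Hoxd10 had 48 UMIs, all of them in endothelial cells, and the other 3 had 5 UMIs together.

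**Figure D1:**
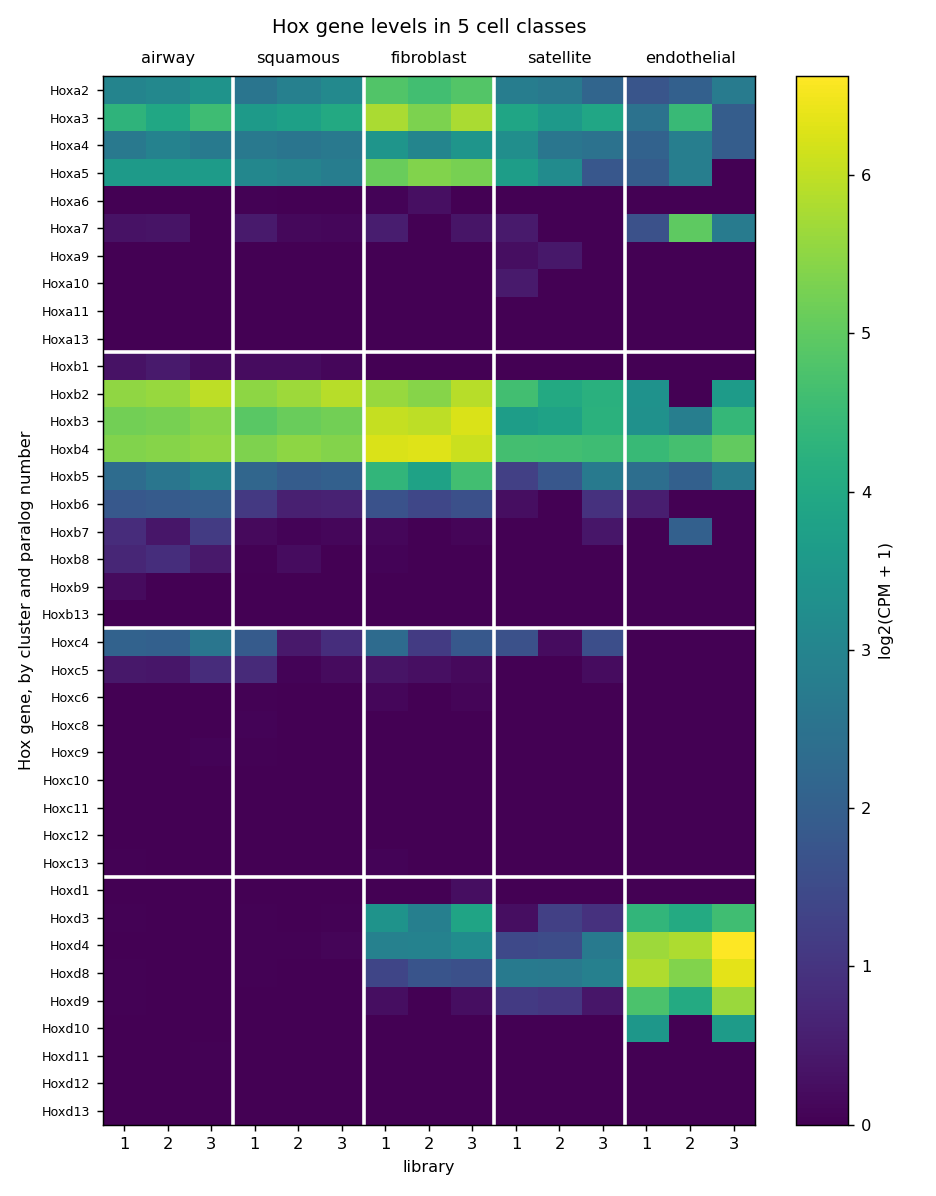
Level of Hox genes (rows, by cluster and number) in each library of 5 cell classes (columns), as log2(CPM + 1). Low-numbered HoxA and HoxB genes are seen in every class, and HoxD genes are seen mainly in the endothelial columns, less in fibroblasts and satellite cells, and hardly in either epithelium.

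The clusters made up different shares of a class's Hox UMIs. HoxB gave 74.0% ± 0.939 of them in airway cells, 78.7% ± 1.13 in squamous cells, 59.4% ± 1.09 in fibroblasts and an average of 57.4% in satellite cells (mean ± SD, n = 3 libraries). In endothelial cells HoxB gave 18.6% ± 2.28 and HoxD gave 67.6% ± 11.3. HoxD gave 10.2% ± 2.38 in satellite cells and 5.34% ± 0.893 in fibroblasts, and under 0.1% in each epithelial library, where all HoxD genes together had 4 UMIs among 94338339 (airway) and 18 among 194283355 (squamous). HoxA ranged from 13.8% ± 13.5 in endothelial cells to 34.5% ± 0.688 in fibroblasts. HoxC was the smallest cluster in every class except the 2 epithelia, at 2.22% or less on average.

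**Figure D2:**
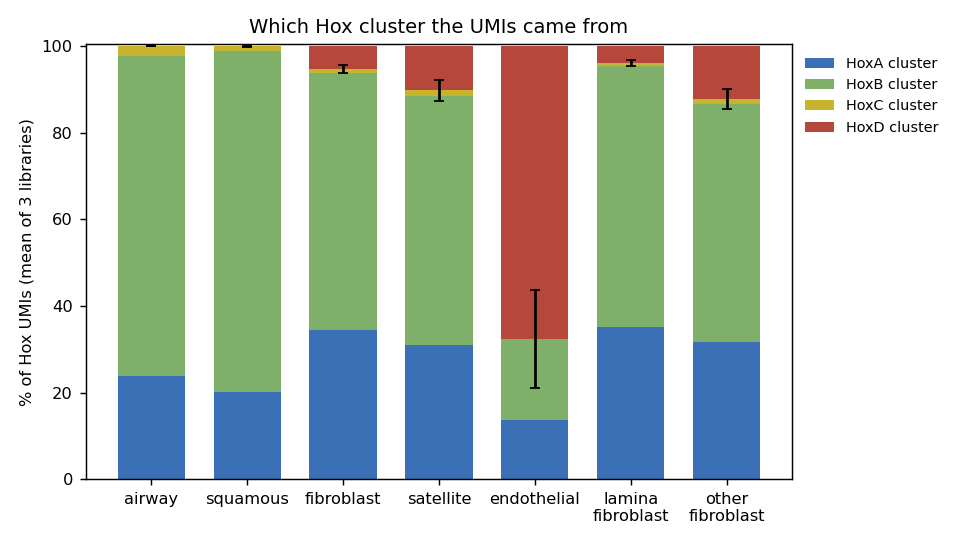
Mean share (%) of a class's Hox UMIs in the HoxA, HoxB, HoxC and HoxD clusters, over 3 libraries, with the SD of the HoxD share as the error bar. The last 2 bars split fibroblasts by a UMI of Hhip, Wnt16 or Col23a1 (lamina) or none (other). The HoxD share is 67.6% in endothelial cells, 10.2% in satellite cells, 5.34% in fibroblasts and close to 0 in airway and squamous cells.

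Fibroblasts carried more of 12 of the 39 Hox genes than squamous epithelium. Of 17 Hox genes that passed the filter on low counts (22 did not, and a gene could pass through the class in which it is high), 12 were higher in fibroblasts and 1 was lower, while 31.2% of all genes tested were higher and 31.6% were lower. The median log2 fold change was 1.41 for the 17 Hox genes and -0.03 for all 17345 genes tested (main test, edgeR's quasi-likelihood test on sums per library and class, Benjamini-Hochberg adjusted p under 0.05). Hoxd3, Hoxd4, Hoxd8 and Hoxd9, with 5, 9, 3 and 1 squamous UMIs, are among the 17. The Hox count and median thus depend in part on the filter. Among HoxA genes, Hoxa5, which takes part in airway and diaphragm formation, stood at 33.3, 40.4 and 37.1 CPM in fibroblasts against 7.44, 6.75 and 5.95 CPM in squamous cells, with a log2 fold change of 2.38 (SE 0.33, adjusted p = 1.3e-05). Every fibroblast value lay above every squamous value. Hoxa3, needed for thymus, parathyroid and other pharyngeal derivatives, stood at 54.3, 38.5 and 54.4 CPM against 11.2, 12.5 and 15.2 CPM (log2 fold change 1.86, SE 0.23, adjusted p = 5.4e-06). Hoxa2, the gene that sets second-arch identity, stood at 27.3, 23.4 and 27.9 CPM against 4.97, 6.37 and 7.62 CPM (log2 fold change 1.99, SE 0.21, adjusted p = 9.2e-07), again with no overlap. Hoxa4 rose less, by 0.73 on the log2 scale (SE 0.23, adjusted p = 0.0126).

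HoxB genes, whose low-numbered members pattern the hindbrain and pharynx, split into genes that were and were not raised in fibroblasts. Hoxb5 stood at 18.7 ± 5.37 CPM in fibroblasts (mean ± SD, n = 3) against 3.53, 2.77 and 3.08 CPM in squamous cells (log2 fold change 2.54, SE 0.32, adjusted p = 5.2e-06). Hoxb3 (64.8, 60.8 and 75.0 against 29.7, 33.3 and 36.4 CPM) and Hoxb4 (75.1, 78.4 and 66.6 against 39.5, 44.1 and 40.7 CPM) were higher by 0.95 (SE 0.15) and 0.75 (SE 0.10) on the log2 scale, with adjusted p of 4.3e-05 and 1.5e-05. Hoxb6 was higher by 1.41 (SE 0.45, adjusted p = 0.0128). Hoxb2, at 47.2, 41.8 and 59.1 CPM in fibroblasts and 44.5, 49.1 and 59.3 CPM in squamous cells, overlapped between the classes, with a log2 fold change of -0.10 (SE 0.20, adjusted p = 0.682). Within HoxD, Hoxd3 stood at 9.49, 6.21 and 13.7 CPM and Hoxd4 at 6.50, 6.62 and 8.29 CPM in fibroblasts, against at most 0.757% of those levels in squamous cells. The log2 fold changes were 8.32 (SE 0.59, adjusted p = 9.5e-09) for Hoxd3 and 7.12 (SE 0.49, adjusted p = 3.7e-08) for Hoxd4, against 5 and 9 squamous UMIs. Hoxd8 was also called higher, on 81 against 3 UMIs (ratio of CPM 120, 95% counting interval 39.5 to 593), and Hoxd9 on 7 against 1 (ratio 31.0, interval 3.99 to 1399). Leaving out library 1 removed the calls of Hoxd9, Hoxa4 and Hoxb6, among others (adjusted p 0.0826, 0.108 and 0.0625), and leaving out library 3 that of Hoxb6 (adjusted p 0.0517).

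The promoters of Hoxa5, Hoxb3 and Hoxb4 are shown as genes called higher in fibroblasts than in squamous, satellite and endothelial cells. Hoxa2, Hoxa3 and Hoxb5, also called higher in all of these comparisons, are not shown. Each run holds the 250 bases before the start of the canonical transcript on GRCm39, 5′ to 3′ on the strand of the gene. Capitals mark matches, on either strand, to 4 motifs, which are CCAAT (the CCAAT box), GGGCGG (the GC box), TAATTA (a homeodomain core) and TGATTNAT (a core of sites that Pbx and Hox proteins bind together).
Hoxa5 promoter, chr6:52181568-52181817, minus strand: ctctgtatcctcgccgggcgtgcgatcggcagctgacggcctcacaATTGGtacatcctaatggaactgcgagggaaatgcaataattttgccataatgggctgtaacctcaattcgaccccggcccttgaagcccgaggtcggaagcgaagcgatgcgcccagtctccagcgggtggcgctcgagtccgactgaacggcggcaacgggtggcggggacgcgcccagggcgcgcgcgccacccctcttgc
Hoxb3 promoter, chr11:96213902-96214151, plus strand: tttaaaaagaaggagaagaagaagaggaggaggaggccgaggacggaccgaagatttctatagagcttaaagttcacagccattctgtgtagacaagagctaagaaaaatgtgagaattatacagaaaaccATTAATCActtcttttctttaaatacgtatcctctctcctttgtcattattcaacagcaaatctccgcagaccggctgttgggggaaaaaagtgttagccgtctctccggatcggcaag
Hoxb4 promoter, chr11:96208843-96209092, plus strand: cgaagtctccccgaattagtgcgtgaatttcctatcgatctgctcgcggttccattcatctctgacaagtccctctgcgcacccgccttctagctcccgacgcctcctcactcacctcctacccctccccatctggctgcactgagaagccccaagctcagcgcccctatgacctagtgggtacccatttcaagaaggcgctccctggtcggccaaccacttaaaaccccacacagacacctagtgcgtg
Hoxa5 holds 1 CCAAT box and Hoxb3 holds 1 match to TGATTNAT, both read on the other strand, and Hoxb4 holds none of the 4 motifs. TGATTNAT was found in 2.55% of the 21770 promoters of the same rule and in 7.69% of the 39 Hox promoters (Hoxa2, Hoxb3 and Hoxb9). CCAAT was found in 36.5% of all and 64.1% of Hox promoters, GGGCGG in 36.3% and 41.0%, and TAATTA in 5.18% and 0%. Median GC content was 53.2% over all promoters and 58.0% over Hox promoters. A match is a run of letters and not evidence of binding.

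**Figure D3:**
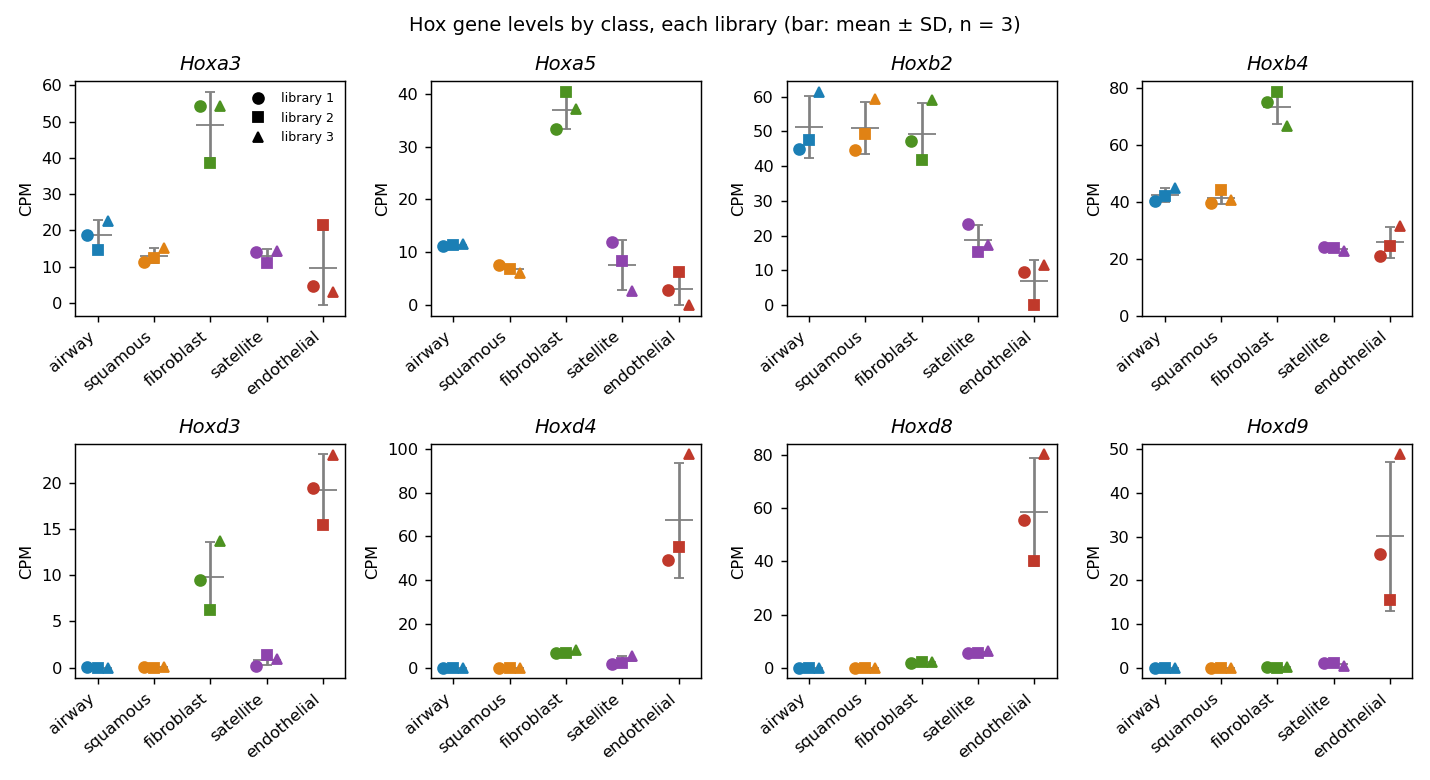
Level (CPM) of 8 Hox genes in 5 cell classes, with 1 point per library and the mean ± SD as a grey bar (n = 3). Hoxa3, Hoxa5 and Hoxb4 are highest in fibroblasts, Hoxb2 lies at similar levels in both epithelia and fibroblasts, and Hoxd4, Hoxd8 and Hoxd9 are highest in endothelial cells.

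Between airway and squamous epithelium, 2 of the 17 Hox genes tested were higher in airway cells and none was lower, a share near that of all genes, of which 9.10% were higher and 7.02% lower. Hoxb7 stood at 0.800, 0.327 and 1.23 CPM in airway cells against 0.122, 0.0477 and 0.0897 CPM in squamous cells (log2 fold change 3.17, SE 0.63, adjusted p = 0.00271). Hoxb6 stood at 2.54, 2.73 and 2.86 CPM against 1.15, 0.501 and 0.538 CPM (log2 fold change 1.92, SE 0.43, adjusted p = 0.00639). Both are low in both epithelia, and in neither gene did the libraries overlap. Both calls were lost without library 1 (adjusted p = 0.0589 for Hoxb7 and 0.0915 for Hoxb6). The genes at higher levels differed less. Hoxb2 stood at 44.8, 47.5 and 61.4 CPM in airway cells and Hoxb4 at 40.3 to 45.0 CPM, with log2 fold changes of 0.03 (SE 0.20) and 0.05 (SE 0.10). Hoxa5 stood at 11.1, 11.3 and 11.5 CPM, above all 3 squamous libraries, yet its log2 fold change of 0.77 (SE 0.31) had an adjusted p of 0.120.

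Airway and squamous sums of 1 library come from the same mice, and a fit with the library as a block called 7 Hox genes in place of 2, while the calls over all 17345 genes rose from 2797 to 4508. It added Hoxa3 (adjusted p = 0.0388), Hoxa5 (0.0321), Hoxb5 (0.0343) and Hoxc4 (0.00907) as higher in airway cells, and Hoxd4, with 0 airway and 9 squamous UMIs, as lower (0.0391). With the more selective rule of at least 2 Krt13 UMIs for squamous cells and of at least 2 Scgb3a2 UMIs without Krt13 for airway cells, chosen after the values were seen, 5 Hox genes were higher in airway cells, beside 4911 genes called of 15840 tested. These were Hoxa3 (log2 fold change 0.67), Hoxb3 (0.68), Hoxb4 (0.58), Hoxb5 (1.75) and Hoxb6 (3.38), with adjusted p from 1.3e-04 to 0.0354, and none was lower. Hoxc4 in airway cells stood at 3.27, 3.05 and 5.10 CPM against 2.72, 0.358 and 0.816 CPM, with library 1 of the squamous class apart from the other two.

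Satellite cells held less Hoxb2, Hoxb3 and Hoxb4 than squamous epithelium, and more of 4 HoxD genes. Of 17 Hox genes 4 were higher and 4 lower, no larger a share than the 26.2% and 30.1% of all genes. Hoxb5, Hoxb6 and Hoxb7 were not called (log2 fold changes -0.07 for Hoxb5 and -0.96 for Hoxb6, with 2 satellite UMIs of Hoxb7). The lower genes included Hoxb2 at 23.4, 15.2 and 17.3 CPM (log2 fold change -1.55, SE 0.22, adjusted p = 2.2e-05), Hoxb3 at 11.9, 13.1 and 17.8 CPM (-1.31, SE 0.16, adjusted p = 4.7e-06) and Hoxb4 at 24.0, 23.6 and 22.6 CPM (-0.92, SE 0.11, adjusted p = 3.9e-06). None of the 3 HoxB genes overlapped with squamous cells. Hoxd8, a gene of the trunk in the embryo, stood at 5.66, 5.43 and 6.40 CPM in satellite cells, a ratio of 379 to squamous cells, which had 3 UMIs (95% counting interval 126 to 1871, for counting error only). Hoxd9 rested on 14 against 1 UMI (ratio 158, interval 24.0 to 6672). Hoxd4 and Hoxd3 were higher by 5.86 (SE 0.53, adjusted p = 6.9e-07) and 4.76 (SE 0.77, adjusted p = 8.3e-05) on the log2 scale. In a fit of the 2 classes alone Hoxd3 and Hoxd9 did not pass the filter on low counts, so that 2 Hox genes were called higher. Hoxd9 was filtered out likewise in such fits of fibroblasts against squamous cells and of satellite cells against fibroblasts. The HoxA genes Hoxa2 to Hoxa5 had log2 fold changes between -0.46 and 0.11 and were not called.

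Against fibroblasts, satellite cells were lower in 10 Hox genes and higher in 2 (25.7% and 18.9% of all genes). The 2 higher genes were Hoxd8, at 1.60, 2.28 and 2.06 CPM in fibroblasts (log2 fold change 1.56, SE 0.31, adjusted p = 7.7e-04), and Hoxd9, at 1.17, 1.05 and 0.312 CPM in satellite cells against 0.178, 0 and 0.182 CPM (2.33, SE 0.75, adjusted p = 0.0202). Hoxd3 and Hoxd4 went the other way, at 0.195, 1.40 and 0.937 CPM and at 1.76, 1.93 and 5.47 CPM in satellite cells, with log2 fold changes of -3.56 (SE 0.50, adjusted p = 3.7e-05) and -1.26 (SE 0.38, adjusted p = 0.0161). The other 8 lower genes were Hoxa2, Hoxa3, Hoxa5, Hoxb2, Hoxb3, Hoxb4, Hoxb5 and Hoxb6, between -1.45 and -2.61. With the library as a block Hoxa4 was called lower too (adjusted p = 0.0359 against 0.0588). Fibroblast matrix genes stood in satellite cells at up to 8.69% of their fibroblast level, which is more than in the other classes. Hoxd3 in satellite cells, at 2.06% to 22.6% of the fibroblast level, overlaps that range, and Hoxd4, at 27.0% to 66.0%, does not. The part of fibroblast RNA in satellite Hoxd3 was not tested. Leaving out library 1 removed the calls of Hoxd8, Hoxd9, Hoxd4 and Hoxb6 (adjusted p 0.0719, 0.209, 0.172 and 0.129), and leaving out library 2 those of Hoxd9 and Hoxd4 (0.135 and 0.0988).

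Endothelial cells had a Hox set led by HoxD. Against squamous cells 5 of 17 were higher and 6 lower, beside 21.0% and 26.1% of all genes, and the median of all genes lay at -0.19 on the log2 scale. Hoxd4 stood at 49.4, 55.4 and 97.5 CPM in endothelial cells, on 263 UMIs against 9 in squamous cells (log2 fold change 10.26, SE 0.52, adjusted p = 4.1e-09). Hoxd8, which is known from blood and lymph vessel cells, stood at 55.7, 40.0 and 80.3 CPM, on 279 against 3 UMIs (ratio 3651, 95% counting interval 1236 to 17811). Hoxd9 stood at 26.0, 15.4 and 48.8 CPM, on 133 against 1 UMI (ratio 5221, interval 921 to 207765). Hoxd3, known for its part in the growth of vessels, stood at 19.4, 15.4 and 23.0 CPM, with a log2 fold change of 9.28 (SE 0.62, adjusted p = 1.1e-08). In each of these 4 genes the lowest endothelial library lay above every squamous library. Hoxa7 was called higher on 21 UMIs, at 2.11, 30.8 and 5.74 CPM (log2 fold change 5.44, SE 1.22, adjusted p = 0.00185), with library 2 apart from the others. One UMI was worth 3.08 CPM in the endothelial sum of library 2, which held 30 cells.

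Of the HoxB genes tested, Hoxb2, Hoxb3 and Hoxb4 were lower in endothelial cells than in squamous cells, and Hoxb5, Hoxb6 and Hoxb7 were not called (Hoxb5 log2 fold change 0.41, SE 0.50, with 2 endothelial UMIs of Hoxb6 and 1 of Hoxb7). Hoxb2 stood at 9.36, 0 and 11.5 CPM (log2 fold change -2.60, SE 0.32, adjusted p = 8.4e-06), Hoxb3 at 9.12, 6.15 and 20.1 CPM (-1.75, SE 0.23, adjusted p = 1.5e-05) and Hoxb4 at 21.1, 24.6 and 31.6 CPM (-0.88, SE 0.14, adjusted p = 1.2e-04). All of these lay below the squamous libraries. Hoxa2 and Hoxa3 were lower by 1.24 and 1.11 with adjusted p of 0.0169 and 0.0339. With the endothelial cells of library 1 thinned out to the number of library 3, an alternative chosen after the values were seen, 4 Hox genes were higher and 3 lower. Hoxa2 and Hoxa3 were no longer called (adjusted p 0.271 and 0.537), and Hoxa7 was not among the higher genes. Leaving out library 1 left 5 higher and 2 lower, and the calls lost included Hoxa2 (adjusted p = 0.481), Hoxa3 (0.781) and Hoxb4 (0.105). Hoxa2 was also lost without library 2 (0.0698) and Hoxa3 without library 3 (0.116).

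Against fibroblasts 4 Hox genes were higher in endothelial cells and 8 lower, beside 16.9% and 22.7% of all genes. Hoxd9, Hoxd8 and Hoxd4 were higher by 7.49 (SE 0.64, adjusted p = 2.6e-07), 4.91 (SE 0.32, adjusted p = 1.7e-08) and 3.15 (SE 0.37, adjusted p = 1.6e-05) on the log2 scale, and Hoxa7 by 4.67 (SE 1.28, adjusted p = 0.00884). The log2 fold change grew from Hoxd3 (0.96, SE 0.43, adjusted p = 0.0939) over Hoxd4 and Hoxd8 to Hoxd9. This is the order of their paralog numbers, and mean fibroblast levels fell in that order, at 9.79, 7.14, 1.98 and 0.120 CPM. Hoxd9 had 7 UMIs in fibroblasts. The mean endothelial levels of these genes did not follow it, with Hoxd4 highest (67.4 CPM), then Hoxd8 (58.7 CPM), and Hoxd3 lowest (19.3 CPM). Hoxd3 passed the threshold with the library as a block (adjusted p = 0.0465), and so did Hoxc4, lower at 0 against 137 UMIs (0.0188 against 0.0640). The 8 lower genes were Hoxa2, Hoxa3, Hoxa4, Hoxa5, Hoxb2, Hoxb3, Hoxb4 and Hoxb5, between -1.34 and -3.65. Hoxa5 had the largest of these differences, at 2.81, 6.15 and 0 CPM in endothelial cells (-3.65, SE 0.57, adjusted p = 1.1e-04). The call of Hoxa7 was lost without library 2 (adjusted p = 0.131), and those of Hoxa4 and Hoxb5 without library 1 (0.331 and 0.0847).

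**Figure D4:**
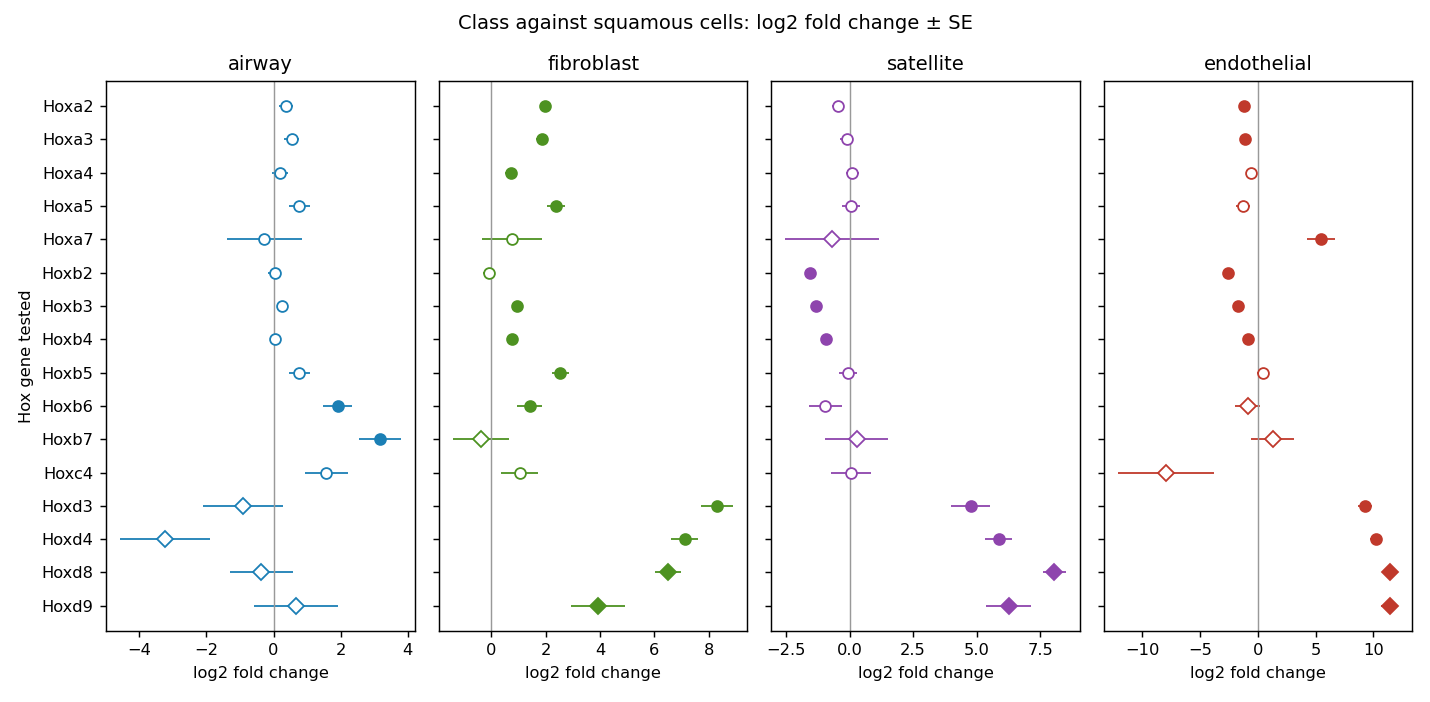
Fitted log2 fold change ± SE of Hox genes tested (rows) in airway, fibroblast, satellite and endothelial cells against squamous cells, with filled points past the threshold, open points not, and a scale of its own in each panel. Diamonds mark genes with 3 UMIs or fewer in 1 group, where the fitted value depends on the prior count and is no measured size. Hoxd3, Hoxd4, Hoxd8 and Hoxd9 lie to the higher side in the fibroblast, satellite and endothelial panels, and Hoxb2, Hoxb3 and Hoxb4 to the lower side in the satellite and endothelial panels.

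The promoters of Hoxd3, Hoxd8 and Hoxd9 are shown as genes called higher in endothelial than in squamous cells, under the same rule and capitals as above. Hoxd4 and Hoxa7, also called higher there, are not shown, and Hoxd3 was not called against fibroblasts. The Hoxd8 stretch is 241 bases long, since 9 bases that lie in an annotated exon were left out.
Hoxd3 promoter, chr2:74542021-74542270, plus strand: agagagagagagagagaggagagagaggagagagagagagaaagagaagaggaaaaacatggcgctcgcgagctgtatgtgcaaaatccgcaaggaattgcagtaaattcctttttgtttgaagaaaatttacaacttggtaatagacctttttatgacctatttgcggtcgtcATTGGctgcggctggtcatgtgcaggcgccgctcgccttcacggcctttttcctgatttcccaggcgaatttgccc
Hoxd8 promoter, chr2:74534718-74534958, plus strand: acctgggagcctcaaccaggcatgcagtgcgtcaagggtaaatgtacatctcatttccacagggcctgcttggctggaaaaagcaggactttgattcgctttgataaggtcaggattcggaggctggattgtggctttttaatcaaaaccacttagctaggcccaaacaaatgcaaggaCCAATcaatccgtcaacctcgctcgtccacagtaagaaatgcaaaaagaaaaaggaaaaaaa
Hoxd9 promoter, chr2:74527758-74528007, plus strand: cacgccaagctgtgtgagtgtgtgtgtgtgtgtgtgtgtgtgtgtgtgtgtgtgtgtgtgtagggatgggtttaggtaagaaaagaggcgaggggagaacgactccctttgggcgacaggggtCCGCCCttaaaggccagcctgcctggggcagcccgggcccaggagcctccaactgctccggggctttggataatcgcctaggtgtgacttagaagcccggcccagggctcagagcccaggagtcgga
Hoxd3 and Hoxd8 hold 1 CCAAT box each, read on the other strand in Hoxd3, and Hoxd9 holds 1 GGGCGG, also on the other strand. The Hoxd8 stretch overlaps an exon of Hoxd3os1, a transcript that runs on the opposite strand, and the Hoxd9 stretch an exon of the opposite-strand transcript Gm28793. Hoxd3os1 itself stood at 24.6, 33.8 and 25.8 CPM in endothelial cells, at 2.93, 2.45 and 4.22 CPM in satellite cells, at 0.579, 1.45 and 0.424 CPM in fibroblasts and at 0 in all 3 airway libraries. Its log2 fold change in endothelial cells was 5.31 against fibroblasts (SE 0.56, adjusted p = 6.0e-06). It thus had the same order of classes as Hoxd8, with which it shares this stretch of the genome.

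Endothelial cells were then split by 6 lymphatic markers (Prox1, Lyve1, Flt4, Ccl21a, Mmrn1 and Reln), a description made after the values were seen and given with no test. In library 1, 109 cells had UMIs of at least 2 of them, 140 of 1 and 242 of none, and the blood vessel gene Plvap stood at 294, 3015 and 1973 CPM in that order. Hoxd9 stood at 73.7 CPM in the cells with at least 2 lymphatic markers, 14.2 CPM in those with 1 and 11.1 CPM in those with none. Hoxd10 stood at 37.4 CPM, 5.54 CPM and 0 CPM, where 3 UMIs would be 1.75 CPM. Hoxd8 stood at 95.1, 45.5 and 43.7 CPM, and Hoxd4 at 70.5, 44.3 and 42.6 CPM. Hoxd3 varied less, at 26.7, 17.8 and 16.9 CPM. In libraries 2 and 3 Hoxd3 was lower in the cells with at least 2 markers (14.6 and 17.4 CPM) than in those with none (38.1 and 28.5 CPM). At most 5 UMIs lie behind each of these values of libraries 2 and 3. Hoxb4 had no order that the libraries shared, at 9.62, 36.3 and 12.8 CPM in library 1, at 29.2, 28.1 and 12.7 CPM in library 2 and at 43.5, 0 and 34.2 CPM in library 3, where at most 6 UMIs lie behind each value of libraries 2 and 3. Over all 3 libraries, 39 of the 48 Hoxd10 UMIs and 18 of the 21 Hoxa7 UMIs came from the 130 cells with at least 2 lymphatic markers, and neither gene had a UMI in the 282 cells with none. Libraries 2 and 3 held 7 and 14 cells with at least 2 markers. In these Hoxd9 stood at 43.8 CPM (3 UMIs) and 104 CPM, against 12.7 and 22.8 CPM in the cells with none. In library 2, 7 of 10 Hoxa7 UMIs came from those 7 cells.

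Fibroblasts with a UMI of Hhip, Wnt16 or Col23a1, taken as markers of the vocal fold lamina, differed from other fibroblasts in 4 of 13 Hox genes tested. One was higher and 3 were lower, against 2.03% and 1.44% of the 13089 genes tested. Hoxa5 stood at 38.1, 44.8 and 42.2 CPM in the cells with these markers against 17.9, 16.1 and 14.2 CPM in the others (log2 fold change 1.33, SE 0.16, adjusted p = 0.00508). The HoxD genes were lower. Hoxd8 stood at 0.994, 1.22 and 0.958 CPM against 3.55, 8.03 and 7.09 CPM (-2.45, SE 0.41, adjusted p = 0.0199), Hoxd4 at 4.68, 5.38 and 6.49 CPM against 12.3, 13.4 and 16.5 CPM (-1.37, SE 0.23, adjusted p = 0.0196) and Hoxd3 at 7.14, 4.16 and 9.88 CPM against 17.0, 17.4 and 31.0 CPM (-1.61, SE 0.33, adjusted p = 0.0425). No library of one set overlapped the other set in these 4 genes. Hoxb6 (lower) and Hoxb4 (higher) did not overlap either, yet they were not called (adjusted p 0.198 and 0.358). The share of all genes without overlap is not given here. HoxD made up 3.84% ± 0.722 of Hox UMIs in the cells with the markers and 12.2% ± 2.36 in the others (n = 3). Hoxb5 had a log2 fold change of -0.88 with an adjusted p of 0.304, and of 0.0417 with the library as a block. All 4 calls were lost without library 1 (adjusted p 0.111 to 0.312) and without library 2 (0.0792 to 0.168), and Hoxd8 also without library 3 (0.117). The other fibroblasts of library 2 were 68 cells. Of 25 regional transcription factors tested in this split, 1 was higher and 2 were lower, among them Hand1 (log2 fold change -1.86, SE 0.33, adjusted p = 0.0251). Tbx4, a T-box factor of lung and limb mesenchyme, was higher in the cells with the markers, at 225, 242 and 231 CPM against 22.0, 26.8 and 31.4 CPM (log2 fold change 3.11, SE 0.15, adjusted p = 4.1e-04).

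**Figure D5:**
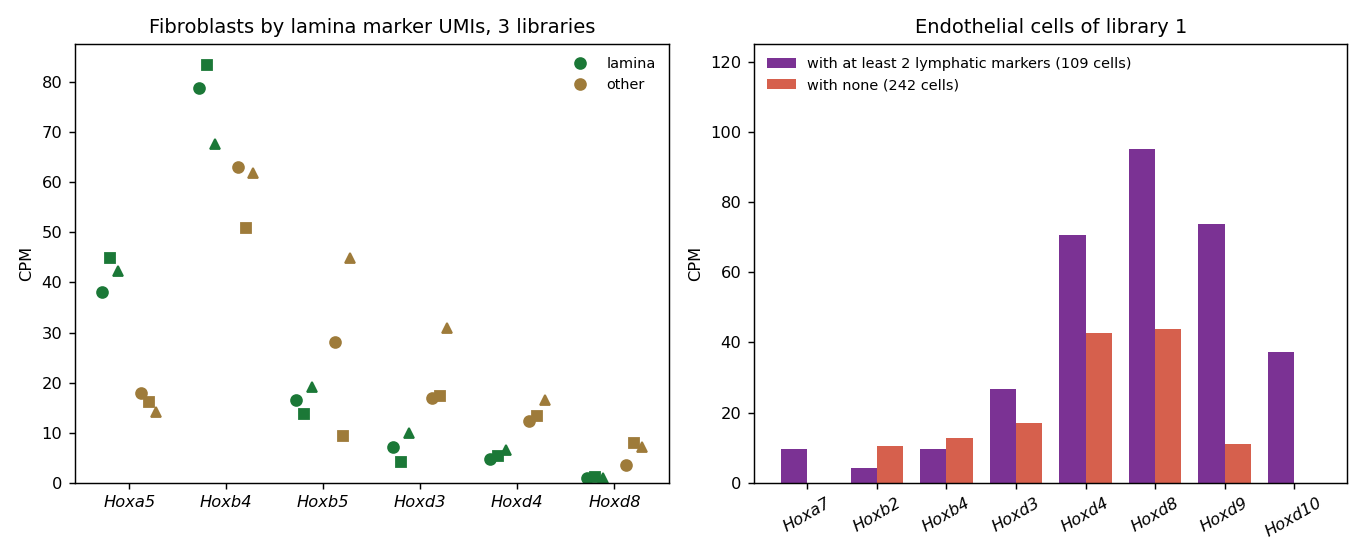
Left, level (CPM) of 6 Hox genes in fibroblasts with and without a UMI of Hhip, Wnt16 or Col23a1, 1 point per library with a marker shape for each. Right, level (CPM) of 8 Hox genes as bars in endothelial cells of library 1 with at least 2 of 6 lymphatic markers (109 cells) and with none (242 cells). Hoxa5 is higher and Hoxd3, Hoxd4 and Hoxd8 are lower in the fibroblasts with the markers, and Hoxd9 and Hoxd10 are higher in the endothelial cells with lymphatic markers.

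The share of cells with any Hox UMI followed both class and depth. It was 87.8% ± 2.28 in fibroblasts, 81.0% ± 4.95 in squamous cells, 80.9% ± 3.15 in airway cells, 62.1% ± 10.7 in endothelial cells and 40.4% ± 2.73 in satellite cells (n = 3). Macrophages, cells of the blood-forming lineage, gave 16.5% ± 2.58. Median depth ran from 13069 to 17388 UMIs in airway cells, from 5800 to 8379 in satellite cells and from 4680 to 10469 in macrophages. With every cell thinned to 5000 UMIs the shares were 77.6% in fibroblasts, 55.6% in airway, 51.6% in squamous and 34.3% in satellite cells, and 54.7% in the endothelial cells of the 2 libraries that kept 20 cells. At that depth 772 fibroblasts, 561 airway cells, 1161 squamous cells, 691 satellite cells and 185 endothelial cells were too shallow and were left out. Every fibroblast library lay above every library of both epithelia at either depth, and airway and squamous libraries overlapped.

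HoxD UMIs were found in 53.9% ± 10.2 of endothelial cells, 10.1% ± 1.44 of fibroblasts and no macrophage (0 of 111, 37 and 39 cells, upper 95% Wilson limit 3.35%, 9.41% and 8.97%). By gene, Hoxd4 was found in 29.3% to 47.7% of endothelial cells and in 5.08%, 5.11% and 6.16% of fibroblasts. In squamous cells it was found in 1, 1 and 7 cells of 2504, 2160 and 7227. Hoxb4, in contrast, was found in 14.4%, 10.8% and 12.8% of macrophages, at 12.9, 16.1 and 20.8 CPM. In satellite cells its share was 12.2%, 12.6% and 9.46% and in endothelial cells 12.6%, 13.3% and 18.2%, which overlaps the macrophage shares. The Hoxb4 CPM in each library of both classes (22.6 to 24.0 and 21.1 to 31.6 CPM) lay above every macrophage library. Both gaps to the highest macrophage library were smaller than 1 UMI, which was worth 3.47 CPM there. Macrophages had 29 Hoxb4 UMIs in all. Hoxb4 is also known from blood-forming cells, and the part of free RNA in its levels was not tested. Hoxb2 was found in 0, 0 and 1 macrophage and in 12.2%, 10.4% and 9.65% of satellite cells.

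Cells with and without a Lrig1 UMI, a split that the study used in its single-cell analysis, were compared within each class, and no Hox gene was called. The cells with a Lrig1 UMI were deeper in each class and library. In squamous cells of library 1, for example, the median was 18047 UMIs with one and 11157 without. Cells without a Lrig1 UMI can thus include cells in which it was missed. Within airway, squamous, fibroblast and satellite cells 14 Hox genes were tested and 0 were called by edgeR, by edgeR with the library as a block or by DESeq2. At an unadjusted p under 0.05 there were 0, 1, 1 and 1. Of all 16680 genes tested 0.0120% were called in airway cells, 0.0120% in squamous cells and 0% in fibroblasts and in satellite cells. With the library as a block 14 genes were called in airway cells and 218 in squamous cells, and with DESeq2 15 and 93. The difference of the Lrig1 effect between classes was tested in 6 pairs, and 0 of 14 Hox genes were called (smallest adjusted p = 0.924).

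Hox proteins bind DNA with cofactors of the Pbx, Meis and Pknox families, and 9 of these genes were tested. Against squamous cells 6 were higher and 2 lower in fibroblasts, 3 higher and 3 lower in satellite cells, and 0 higher and 5 lower in endothelial cells, with 2 higher and 0 lower in airway cells. Of all genes, 31.2% and 31.6% were higher and lower in fibroblasts, 26.2% and 30.1% in satellite cells, 21.0% and 26.1% in endothelial cells and 9.10% and 7.02% in airway cells, and the satellite counts of cofactors are near those shares. Meis1 stood at 304, 318 and 320 CPM in fibroblasts, 276, 268 and 284 CPM in squamous cells and 18.2, 9.23 and 20.1 CPM in endothelial cells (endothelial against squamous -4.05 on the log2 scale, SE 0.20, adjusted p = 5.0e-10). Endothelial cells, highest in HoxD, were thus lower in 5 cofactors against either class, and summed to 558 to 651 CPM over the 9 genes against 2713 to 2868 CPM in fibroblasts. In fibroblasts against squamous cells Pknox2 (1.86), Pbx4 (1.15) and Meis3 (1.14) were higher and Pbx3 (-0.88) was lower. Pknox2 (0.86) and Meis3 (0.58) were the 2 raised in airway cells.

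Of 13 noncoding transcripts of the Hox clusters, 10 were in the files and 6 passed the filter. Against squamous cells 3 were higher and 1 lower in fibroblasts, 1 higher and 3 lower in satellite and in endothelial cells alike, and 1 higher in airway cells, too few transcripts to set against the 21.0% to 31.6% of all genes called in each direction in the first 3 comparisons. Hoxaas2 stood at 24.5, 20.5 and 22.7 CPM in fibroblasts against 3.33, 3.03 and 3.94 CPM in squamous cells (log2 fold change 2.65, SE 0.20, adjusted p = 1.7e-08), and was also the one raised in airway cells (0.69). Hotairm1 stood at 22.6, 21.9 and 19.9 CPM in fibroblasts and 69.5, 100 and 47.4 CPM in squamous cells (-1.83, SE 0.27, adjusted p = 2.7e-05). Hoxaas2, Hoxaas3 and Hotairm1 were the 3 that fell in satellite and in endothelial cells. Whether the counting used strand is not stated in the sources used here, so reads of a Hox gene and of its opposite-strand partner may not be separate.

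Of 26 regulators of Hox genes tested (retinoic acid enzymes and receptors, Cdx factors, Polycomb and trithorax genes), 9 were higher and 9 lower in fibroblasts than in squamous cells, and 2 were higher and 3 lower in airway cells, shares near the 31.2% and 31.6%, and the 9.10% and 7.02%, of all genes. Aldh1a2, the enzyme that makes retinoic acid in the embryo, stood at 64.8, 36.0 and 44.8 CPM in fibroblasts, at 0.171, 0.0239 and 0.179 CPM in squamous cells and at 0.234, 0 and 0 CPM in endothelial cells. In airway cells Rarb, a retinoic acid receptor, and Gmnn were higher (0.89 and 1.11) and Ezh2, the Polycomb methyltransferase, was lower (-0.72). In satellite cells 10 were higher and 7 lower, beside 26.2% and 30.1% of all genes, and in endothelial cells 3 were higher and 7 lower, beside 21.0% and 26.1%. Hmga2 was lower in all 3 non-epithelial classes than in squamous cells, by 4.66, 4.08 and 5.63 on the log2 scale in fibroblasts, satellite and endothelial cells. Cdx2 and Cdx4, activators of posterior Hox genes in the embryo, had no UMI in any of the 5 classes.

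Transcription factors other than Hox genes also mark regions of the pharynx and body. Of 33 tested, 18 were higher and 11 lower in fibroblasts than in squamous cells, 9 and 12 in satellite cells, 2 and 11 in endothelial cells and 5 and 5 in airway cells. The satellite shares are near the 26.2% and 30.1% of all genes, and those of all genes were 31.2% and 31.6% in fibroblasts, 21.0% and 26.1% in endothelial cells and 9.10% and 7.02% in airway cells. Fibroblasts held Tbx4 at 176, 209 and 195 CPM, Tbx5 at 43.9, 39.1 and 38.1 CPM and Twist1 at 206, 191 and 242 CPM, each at 0.977 CPM or less in every squamous library. Satellite cells held Pax3, a factor of muscle progenitors, at 19.9, 25.7 and 15.5 CPM, En1 at 34.6, 31.5 and 42.6 CPM and Zic1 at 12.3, 11.7 and 9.37 CPM. In endothelial cells 15 of the 40 factors in the list had no UMI in any library, at a depth where 1 UMI was worth 3.08 CPM in library 2. Pax9, a pharyngeal factor, stood there at 3.04, 0 and 2.87 CPM against 169, 174 and 206 CPM in squamous cells (-6.07, SE 0.38, adjusted p = 5.8e-09), while Msx1 was higher at 22.2, 12.3 and 11.5 CPM (5.63, SE 0.38, adjusted p = 1.2e-08). Between the epithelia Irx1 and Foxa2 were higher in airway cells (3.17 and 3.27) and Dlx3 lower (-3.50). En1 was called lower too, at 0 in all airway libraries against at most 0.0628 CPM.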

How the data were processed

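Single-cell UMI counts were analysed as the authors deposited them, per gene and cell barcode, for 3 libraries of the 10x 3′ method. Per the submitters' processing notes they were made with Cell Ranger 8.0.1 on mm39, and the annotation release and strand setting are not given in the sources used here. Of 60530 barcodes, 49393 passed 3 limits, which were 500 to 8000 genes, a depth of 1000 to 40000 UMIs and a mitochondrial share of no more than 8%. A simulated-doublet score (30 principal components, 2000 variable genes, 30 neighbours) then removed 0.4% per 1000 barcodes of a library, 4851 in all. No annotation of cells was used, so classes were rebuilt from UMIs of fixed markers (epithelial 2 of 6, fibroblast 3 of 6, satellite 2 of 6, endothelial 3 of 8, mural and macrophage 3 of 7), and a difference from the study may come from these rebuilt names.

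Counts were summed per library and class (at least 20 cells) and tested with edgeR 4.0.16 (R 4.3.3) by the quasi-likelihood test with TMM scaling, filterByExpr and Benjamini-Hochberg adjustment over all genes tested, at a threshold of 0.05. All adjusted p are from this test unless another is named. DESeq2 1.42.0, another scaling, no filter, the library as a block, other gates, doublets kept, thinning and leaving out each library were alternatives. Sums of 1 library come from the same animals, so the library pairs them, and the deviations of classes of 1 library from the class means correlated with a median of 0.114, 0.223 and 0.291. The p-values of the class comparisons measure the spread between libraries within a class, estimated over all 5 classes at once. Outside the block fit, sums of the same library are treated there as independent. The splits by lamina markers and by Lrig1 were fitted apart from these, in the same way. Confidence intervals of shares are Wilson's and those of ratios exact, both at 95% and for counting error only. The code was tested on simulated data. Python 3.11.15, numpy 2.4.6, scipy 1.17.1 and scikit-learn 1.9.0 were used.

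Every Hox gene with at least 5 CPM in all 3 libraries of a main class, or called in a class comparison, was to be named, and of each other list up to 4 called genes with the largest change. Members and lists were chosen with earlier results of these data known. Genes outside that rule (Hoxd10, Hoxc4, the factors named with their levels) were chosen after their values were seen. Coordinates are those of GENCODE vM39 on GRCm39. Results of some genes, which the counts include, are not reported here.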

Additional observations from a re-analysis of the deposited data

Results flagged for a closer look

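Cells outside the 5 classes held Hox genes above any library of those classes. Neuroendocrine cells, 56 in library 1 and 26 in library 2, had Hoxb2 at a mean of 428 CPM (386 and 470 CPM), against 61.4 CPM in the highest library of the 5 classes. Hoxb5 stood at 404 CPM (345 and 463, against 23.7 CPM), Hoxb4 at 212 CPM (166 and 257, against 78.4 CPM) and Hoxb6 at 123 CPM (86.4 and 159, against 2.86 CPM). These cells held Calca, the gene of calcitonin and of a neuropeptide, at 9901 and 4867 CPM and the thyroid hormone precursor gene Tg at 0.800 and 1.55 CPM. Markers of calcitonin-producing C cells and thyroid cells summed to 10241 to 15032 CPM against 165 to 185 CPM in airway cells, and their part in the Hox levels was not tested. Library 3 had 7 such cells, too few for a sum. None of these differences was tested.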

How the results depend on the processing

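No fold change of a Hox gene reversed its direction under any alternative run. The count of Hox genes that differed between airway and squamous cells was 2, and it was 7 with the library as a block, 1 with stricter gates, 1 with cells thinned to 5000 UMIs, 5 with a fit of the 2 classes alone and 5 with gates on Krt13 and Scgb3a2 (chosen after seeing the data), and 0 to 3 when a library was left out. Between endothelial and squamous cells it was 11, and 7 with thinned cells, 7 with the endothelial cells of library 1 thinned out (chosen after seeing the data) and 7 to 11 when a library was left out. Between fibroblasts and squamous cells 12 Hox genes were higher and 1 lower, and 9 and 1 with cells thinned to 5000 UMIs. Between the 2 sets of fibroblasts the count was 4, and 0 to 3 when a library was left out. Fewer samples or UMIs enter the fits that leave out a library or thin cells, and for the other alternatives the cause was not tested. The block changed no other Hox call than those given beside the results. Over all genes, calls between airway and squamous cells numbered 2797, and 4508 with the block, 4911 with the added gates and 761 without library 1. Without library 1 they fell from 8157 to 4021 (endothelial against squamous), from 7739 to 4569 (satellite against fibroblast) and from 6861 to 3118 (endothelial against fibroblast). Between the 2 sets of fibroblasts they were 455, and 1289 with the block, 717 with DESeq2, 847 with no filter, 20 without library 1 and 75 without library 2. For the Lrig1 split they were 2 in airway cells (14 with the block, 15 with DESeq2) and 2 in squamous cells (218 with the block, 93 with DESeq2, 9 with no filter).

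Shares of cells with a Hox UMI moved with depth. Thinned to 5000 and to 2000 UMIs they were 55.6% and 29.6% in airway cells, 51.6% and 27.7% in squamous cells, 77.6% and 46.4% in fibroblasts, 34.3% and 17.9% in satellite cells and, in macrophages, 11.9% (library 1 alone, since the others kept too few cells) and 5.10%, and 34.5% in endothelial cells at 2000 UMIs. Stricter gates gave 87.4% in airway cells and 90.1% in fibroblasts. The endothelial sums of libraries 2 and 3 rest on 30 and 44 cells, which limits their precision.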

Other observations

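Mural cells, the contractile cells around vessels, had enough cells in libraries 1 and 3, where Hoxb2 stood at 115 and 98.5 CPM. In thyroid cells Hoxc4 stood at 40.1, 0.898 and 0 CPM, so that library 1 stood apart from the others. Hoxb13 had 11 UMIs, all in ciliated cells. A Hox UMI was found in 95.3% ± 4.18 of neuroendocrine cells (mean ± SD, libraries 1 and 2). These values are given with no test.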
